A study of Bos taurus with 24 samples.

Results

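Satellite cells of bovine skeletal muscle, its resident stem cells, were compared before and after the first 24 h in differentiation medium, in monoculture without added fibroblasts. The members are the 4 RNA sequencing libraries titled as monoculture at 24 h of differentiation and the 4 titled as monoculture in proliferation, 8 of the 24 libraries that carry labels. Both groups came from a mix of 3 wild-type (WT) satellite cell lines of the musculus longissimus dorsi, at passage 3, plated at 8000 cells/cm2 and grown with 20% fetal bovine serum. Cells of the 24 h group had spent 24 h with 10% horse serum, in the same basal medium (High Glucose DMEM), a switch made after 5 days of culture. Cells of the proliferation group were taken on day 5 in the medium with fetal serum. The kind of serum, its share and the age of the culture therefore changed together between the groups and cannot be told apart. Coculture libraries of the same times, 4 each, serve for comparison; there, fibroblasts at passage 10 shared the medium through 0.4 µm pores. The labels do not say whether the monoculture wells held an empty insert, nor whether replicates were separate cultures, so p-values measure the spread between these libraries, which may be technical.

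A satellite cell rests under the sheath of the muscle fibre until injury or growth wakes it, divides as a myoblast, and then leaves the cell cycle, turns on the muscle program and fuses into a myotube. In culture, rich serum keeps myoblasts dividing and poor or horse serum is the usual signal to stop. MYF5 and MYOD1 mark the committed myoblast, MYOG starts terminal differentiation, and myosins, troponins and the fusion protein MYMK follow.

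Library totals ran from 16.2 to 23.9 M counts at 24 h and from 14.5 to 18.2 M counts in proliferation (M, 1e6), and all 8 libraries came from lane 6. The library descriptions give the 24 h libraries a number code of 1 and the proliferation libraries a code of 2, so whatever that code stands for cannot be told apart from the 24 h. Nuclear ribosomal RNA took 0.281 to 0.934% of counts at 24 h and 1.23 to 1.40% in proliferation. Mitochondrially encoded protein genes took 2.81 to 3.26% at 24 h and 2.00 to 2.10% in proliferation. COL1A1 took 3.94 to 4.31% of counts at 24 h and 1.88 to 2.14% in proliferation. The first principal component of the 8 libraries held 76.4% of their variance.

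The count table lists 11937 genes, each with at least 6 counts in every one of the 24 labelled libraries. A gene that was silent in some of these libraries is therefore not among them. Absence alone does not show low expression, since ribosomal protein genes such as RPS6 are also not listed by symbol, and 893 listed genes have no symbol. Of 13 markers of satellite cells and myoblasts, 6 are listed: PAX3, ITGA7, NCAM1, DES, MET and SDC4. PAX7, MYF5, MYOD1, MYOG, CDH15, CALCR and VCAM1 are not among the listed genes, and neither are MYMK, MSTN, IGF2 and CDKN1C. Of the 6 listed markers, at least DES, MET and SDC4 are also found in other mesenchymal cells. Whether any of the 6 was specific to muscle cells in these cultures was not tested. Terminal differentiation cannot be followed through MYOG here.

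Over the 24 h, 8179 of 11937 genes (68.5%) changed by edgeR's quasi-likelihood F test at a Benjamini-Hochberg adjusted p under 0.05, the rule for a call throughout. Higher at 24 h were 4092 genes (34.3%) and lower were 4087 (34.2%). The changes were mostly small: the median size among called genes was 0.43 on the log2 scale. At least 2-fold higher were 404 genes (3.38%) and at least 2-fold lower were 130 (1.09%), and 15 and 2 genes reached 4-fold. In 7005 called genes (58.7%) the 4 libraries of one group did not overlap the 4 of the other. Levels are counts per 1e6 counts (CPM), on library sizes scaled by the TMM method, fold changes are log2 values of 24 h over proliferation with standard errors (SE), and levels of different genes are not compared because the table holds no transcript lengths. The even split rests on that scaling: with library sizes alone the median of all genes moved to -0.19, against -0.00 with TMM, and 29.5% of called genes were higher in place of 50.03%. The genes at least 2-fold higher and lower then numbered 235 and 339. Counts for each gene group in monoculture are therefore given with both scalings where the group is first described. Coculture counts of the groups are given with TMM only. A group with about 34.3% of its members higher and 34.2% lower has the shares of all genes.

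**Figure D1:**
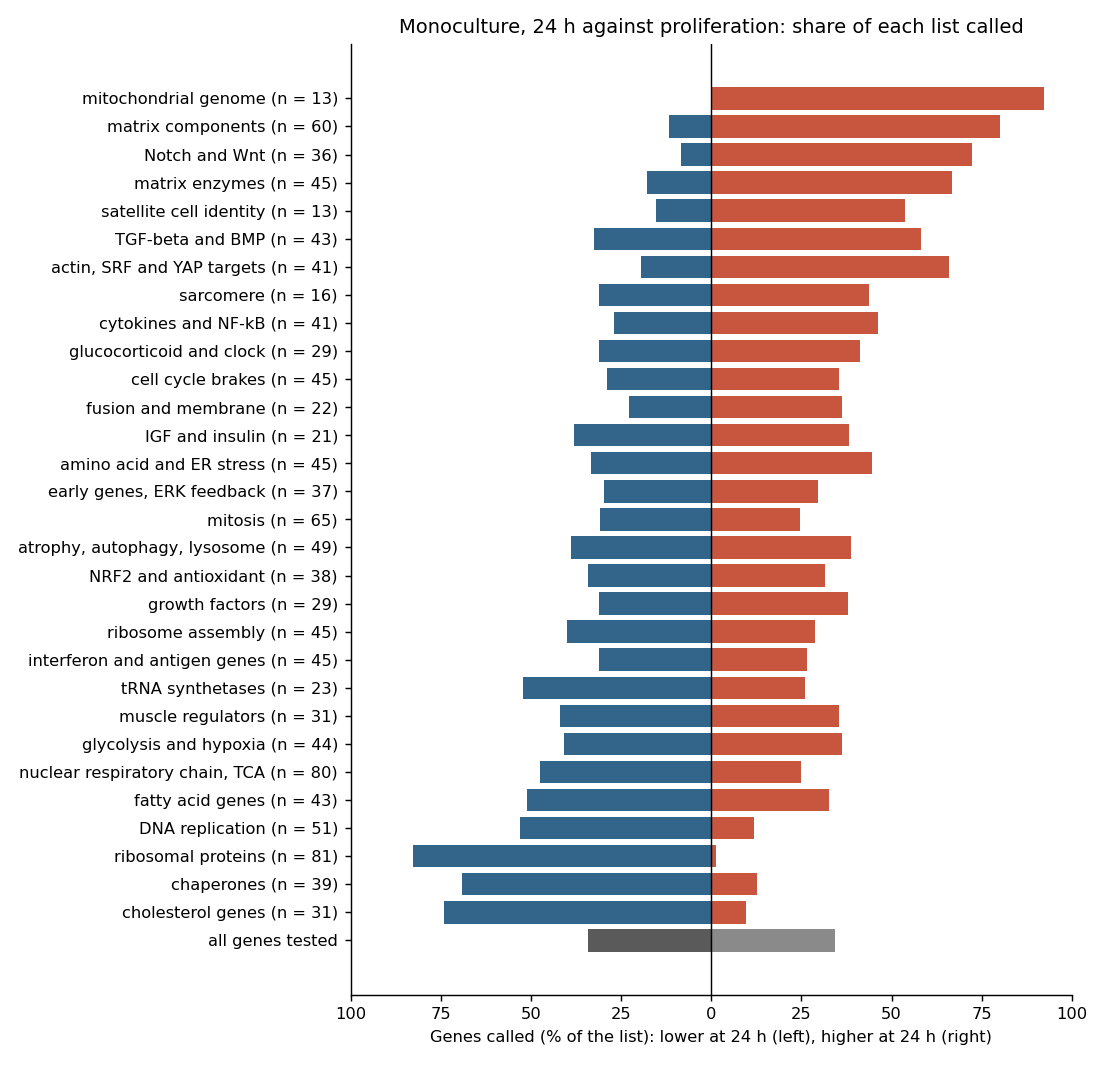
Share of the listed members of 30 gene groups called higher at 24 h (bars to the right) or lower at 24 h (bars to the left) in monoculture, with n listed members, ordered by the median log2 fold change. The grey bar is all 11937 genes tested, 34.3% higher and 34.2% lower. Bars to the right are long for the mitochondrial genome (12 of 13) and matrix components (48 of 60), bars to the left for ribosomal proteins (67 of 81) and cholesterol genes (23 of 31).

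The genes described first are the 12 largest rises and the 12 largest falls among called genes with a symbol of their own, groups that do not overlap, and 5 CPM or more on average where the gene was higher. The absence of overlap among them was thus set by the choice and is no further result, and genes outside these limits changed more than some of them. The largest rise belonged to ANGPTL4, a secreted inhibitor of lipoprotein lipase that responds to fatty acids, glucocorticoids and low oxygen. ANGPTL4 (ENSBTAG00000002473, chromosome 7, 17005585 to 17012649 in the coordinates of the deposited table, for which the labels name no genome build) had 94.8, 92.1, 94.1 and 93.2 CPM in the 24 h libraries, against 7.51, 6.73, 6.81 and 7.06 CPM in the proliferation libraries. Every 24 h library stood far above every proliferation library (log2 fold change 3.74 ± 0.08 (SE), edgeR adjusted p = 1.12e-25). FNDC1, a fibronectin domain protein (ENSBTAG00000003938, chromosome 9, 95479849 to 95591576), had 262, 229, 277 and 238 CPM in the 24 h libraries, against 42.4, 37.95, 45.3 and 42.8 CPM in the proliferation libraries (log2 fold change 2.58 ± 0.07 (SE), edgeR adjusted p = 7.44e-23). The groups of FNDC1 were also far apart, with more spread among the 24 h libraries.

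PER1, a repressor of the circadian clock that glucocorticoids also induce, had 31.5, 32.2, 32.96 and 32.6 CPM in the 24 h libraries, against 8.01, 5.93, 5.698 and 7.01 CPM in the proliferation libraries. The 24 h libraries of PER1 were nearly level (log2 fold change 2.29 ± 0.07 (SE), edgeR adjusted p = 5.06e-21). P4HA3, a subunit of the prolyl hydroxylase that collagen chains need for a stable helix, had 22.2, 20.8, 22.4 and 20.96 CPM in the 24 h libraries, against 5.15, 5.83, 6.07 and 5.69 CPM in the proliferation libraries (log2 fold change 1.92 ± 0.10 (SE), edgeR adjusted p = 6.72e-16). ADAMTS6, a secreted metalloproteinase of the matrix, had 26.6, 21.7, 24.1 and 25.4 CPM in the 24 h libraries, against 5.03, 5.34, 5.33 and 4.71 CPM in the proliferation libraries (log2 fold change 2.25 ± 0.12 (SE), edgeR adjusted p = 7.17e-16). Both matrix genes were several-fold higher in each of the 4 libraries at 24 h.

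IGSF9, an adhesion protein of the immunoglobulin family, had 47.9, 44.2, 54.3 and 43 CPM in the 24 h libraries, against 11.2, 9.87, 9.13 and 10.1 CPM in the proliferation libraries (log2 fold change 2.24 ± 0.10 (SE), edgeR adjusted p = 8.21e-18). LENG8 had 342, 336, 412 and 353 CPM in the 24 h libraries, against 100.3, 94.5, 94.4 and 94.99 CPM in the proliferation libraries (log2 fold change 1.91 ± 0.06 (SE), edgeR adjusted p = 4.62e-21). Replicate 3 of LENG8 was the highest of its 24 h libraries. The other 5 of these 12 rises had low levels in proliferation: the anion exchanger family gene SLC26A10 (2.83 ± 0.19), the adenylyl cyclase ADCY5 (2.37 ± 0.20), CFAP119 (2.23 ± 0.16), the actin bundling family gene ESPNL (1.98 ± 0.12) and the netrin relative NTNG2 (1.97 ± 0.11). Their mean levels were 8.37 to 13.7 CPM at 24 h and 1.34 to 3.44 CPM in proliferation.

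The largest fall under these limits was that of SCD, the desaturase that makes monounsaturated fatty acids (ENSBTAG00000055207, chromosome 26, 21263976 to 21279185), with 9.24, 12, 13 and 10.7 CPM in the 24 h libraries, against 41.1, 44.6, 35.03 and 43.2 CPM in the proliferation libraries. All 24 h libraries of SCD lay far below all proliferation libraries (log2 fold change -1.85 ± 0.10 (SE), edgeR adjusted p = 3.72e-16). GREM1, a secreted antagonist of bone morphogenetic proteins, had 99.9, 116, 113 and 128 CPM in the 24 h libraries, against 363, 324, 346 and 337 CPM in the proliferation libraries (log2 fold change -1.58 ± 0.07 (SE), edgeR adjusted p = 1.13e-17). PERP, a membrane protein of the p53 pathway, had 28.1, 34.4, 27.8 and 35.5 CPM in the 24 h libraries, against 98.9, 91.2, 103 and 95.5 CPM in the proliferation libraries (log2 fold change -1.63 ± 0.07 (SE), edgeR adjusted p = 1.13e-17). The proliferation libraries of both genes lay close together.

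ADAMTS5, a protease that cuts aggrecan and versican, had 5.15, 9.32, 8.898 and 9.16 CPM in the 24 h libraries, against 23.8, 25.1, 23.7 and 26.6 CPM in the proliferation libraries. Replicate 1 at 24 h stood below the other 24 h libraries, and all 4 were below proliferation (log2 fold change -1.59 ± 0.12 (SE), edgeR adjusted p = 4.92e-13). IL1RL1, the receptor of interleukin 33, had 1.76, 2.8, 2.37 and 3.39 CPM in the 24 h libraries, against 8.13, 8.68, 7.23 and 8.72 CPM in the proliferation libraries (log2 fold change -1.66 ± 0.15 (SE), edgeR adjusted p = 8.33e-11). AQP1, a water channel, had 18.2, 20.2, 18.7 and 21.6 CPM in the 24 h libraries, against 55.6, 61.8, 52.2 and 55.9 CPM in the proliferation libraries (log2 fold change -1.52 ± 0.09 (SE), edgeR adjusted p = 1.60e-15). Replicate 1 had the lowest 24 h value of both.

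OGN, the small proteoglycan osteoglycin, had 2.77, 4.76, 4.001 and 5.15 CPM in the 24 h libraries, against 11.8, 13.8, 12.4 and 13.8 CPM in the proliferation libraries (log2 fold change -1.62 ± 0.15 (SE), edgeR adjusted p = 4.01e-11). The remaining genes among these 12 falls were CARNMT1, a methyltransferase that makes anserine (-1.64 ± 0.06), the glutathione transferase GSTM4 (-1.59 ± 0.16), the transmembrane glycoprotein GPNMB (-1.54 ± 0.08), the prostaglandin E synthase PTGES (-1.52 ± 0.16) and the calcium-binding protein GCA (-1.49 ± 0.11). CARNMT1 averaged 36.1 ± 3.602 CPM at 24 h and 112 ± 6.34 CPM in proliferation (SD, n = 4 each). Over the genes chosen in this way the falls ran from -1.49 to -1.85 and the rises from 1.91 to 3.74.

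**Figure D2:**
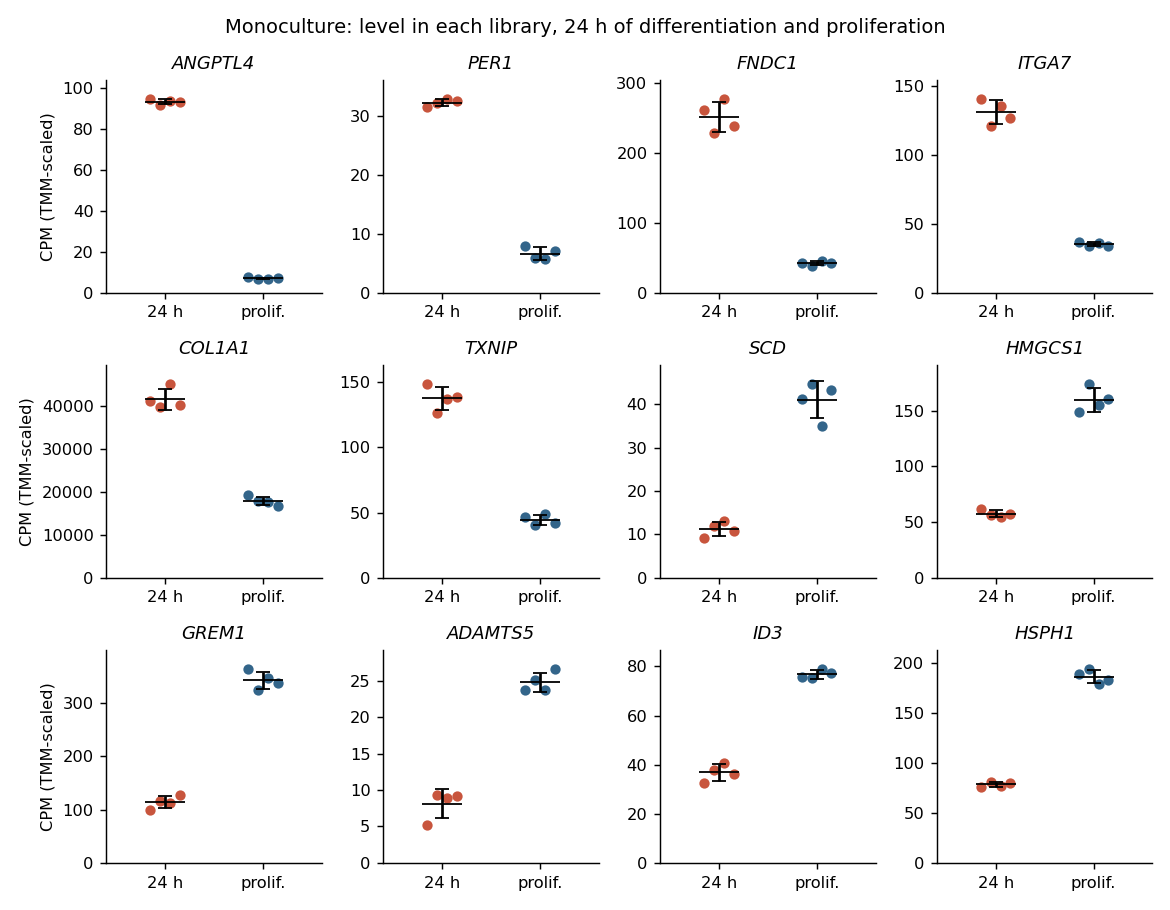
CPM of 12 genes in each of the 4 libraries at 24 h (left, orange) and the 4 in proliferation (right, blue) of monoculture; bars are the mean and SD, and each axis starts at 0. ANGPTL4, the largest log2 rise shown, averaged 93.5 CPM at 24 h against 7.03 CPM in proliferation. SCD, the largest log2 fall shown, averaged 11.2 CPM at 24 h against 41.0 CPM in proliferation.

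Genes of satellite cell identity were more often higher than lower at 24 h. Of 13 listed members of that group, 7 rose and 2 fell, with a median log2 fold change of 0.37 (7 higher and 4 lower with library sizes alone). ITGA7, the laminin receptor chain of muscle (ENSBTAG00000012897, chromosome 5, 57548782 to 57572012), had 140.3, 121, 135 and 126 CPM in the 24 h libraries, against 36.8, 34.2, 35.9 and 33.6 CPM in the proliferation libraries. Each 24 h library held several times the level of each proliferation library (log2 fold change 1.896 ± 0.08 (SE), edgeR adjusted p = 8.21e-18). CD82, a surface tetraspanin of human satellite cells, rose (1.100 ± 0.07), as did the growth factor receptor FGFR1 (0.93 ± 0.04), the adhesion molecule NCAM1 (0.76 ± 0.08) and LRIG1, a brake on growth factor receptors (0.71 ± 0.06). SPRY1, an inhibitor of fibroblast growth factor signalling that keeps mouse satellite cells quiescent, fell (-0.79 ± 0.11). It was the one called fall of the group without proliferation replicate 2 or 4 or without 24 h replicate 1 or 3. PAX3, the regulator of embryonic muscle progenitors, averaged 36.8 ± 2.02 CPM at 24 h and 34.4 ± 1.45 CPM in proliferation (SD, n = 4 each) and was not called. MET, the receptor of hepatocyte growth factor (15.99 ± 2.54 CPM at 24 h, 15.4 ± 0.568 CPM in proliferation), and SDC4 (46.7 ± 4.92 CPM at 24 h, 46.1 ± 2.23 CPM in proliferation) were not called either, although SDC4 was called lower with library sizes alone (-0.17).

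The regulators of the muscle program had shares near those of all genes. Among 31 listed members, 11 rose and 13 fell (5 higher and 17 lower with library sizes alone), around a median of -0.10, and 77.4% were called in either direction, against 68.5% of all genes. The inhibitors of differentiation ID1 and ID3, which block MYOD1 from its partners, both fell. ID3 had 32.6, 37.9, 40.8 and 36.2 CPM in the 24 h libraries, against 75.7, 75.1, 78.8 and 77.3 CPM in the proliferation libraries (log2 fold change -1.05 ± 0.09 (SE), edgeR adjusted p = 1.63e-11). ID1 had 1.57, 1.55, 2.001 and 1.82 CPM in the 24 h libraries, against 2.79, 3.69, 3.54 and 4.07 CPM in the proliferation libraries (log2 fold change -1.03 ± 0.20 (SE), edgeR adjusted p = 4.55e-05). For both, the highest 24 h library was below the lowest proliferation library. ID4 also fell (-0.75 ± 0.19).

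Among partners and cofactors of MYOD1, SMARCD3, the muscle subunit of the SWI/SNF remodelling complex, rose (1.01 ± 0.06), as did the E protein TCF3 (0.61 ± 0.07) and the transcription factor MEF2D (0.52 ± 0.05). The deacetylase HDAC7 (0.81 ± 0.05) and the repressor MSC (0.35 ± 0.09) rose too, although MSC was not called with library sizes alone. TEAD1, the DNA-binding partner of YAP1 (-0.69 ± 0.10), and the coactivator EYA4 (-0.68 ± 0.14) fell.

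Contractile genes gave no common direction, and most are not among the listed genes: of 57 symbols 16 are listed. Of these, 7 rose and 5 fell (7 higher and 6 lower with library sizes alone). TCAP, which caps titin at the Z-disc, had 5.47, 5.14, 5.11 and 4.64 CPM in the 24 h libraries, against 1.37, 1.05, 1.899 and 1.57 CPM in the proliferation libraries (log2 fold change 1.79 ± 0.16 (SE), edgeR adjusted p = 2.67e-11). All 4 of its 24 h libraries were higher, at levels that remained low. The Z-disc filamin FLNC (1.11 ± 0.06), the M-band protein MYOM1 (0.82 ± 0.13), FHL1 (0.62 ± 0.05) and the intermediate filament desmin, DES (0.49 ± 0.06), also rose. The small heat shock protein CRYAB, a chaperone of desmin, had 185, 196, 184 and 189 CPM in the 24 h libraries, against 346, 419, 344 and 405 CPM in the proliferation libraries (log2 fold change -1.005 ± 0.15 (SE), edgeR adjusted p = 7.25e-07). CRYAB was lower in every 24 h library, and the muscle enolase ENO3 (-0.91 ± 0.08) and the tropomyosin TPM3 (-0.29 ± 0.06) fell as well.

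Fusion and membrane genes had no common direction. Of 22 listed, 8 rose and 5 fell, with a median of 0.03; with library sizes alone the order turned, 5 higher and 10 lower. The membrane repair protein DYSF (0.86 ± 0.10), N-cadherin, CDH2 (0.52 ± 0.04), and the cell contact receptor BOC (0.43 ± 0.11) rose, BOC not with library sizes alone. CDON, the close relative of BOC (-0.58 ± 0.08), and the exchange factor DOCK5 (-0.44 ± 0.09) fell.

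DNA replication genes were more often lower than higher at 24 h. Of 51 listed replication genes, 27 fell and 6 rose (median -0.26), and with library sizes alone the counts were 1 higher and 39 lower. The chromatin remodeller HELLS (-0.77 ± 0.07), the polymerase subunit POLA1 (-0.71 ± 0.06), cyclin E, CCNE1 (-0.55 ± 0.10), and the helicase subunit MCM6 (-0.54 ± 0.06) fell. The licensing factor CDT1 (0.51 ± 0.10) and the polymerase subunit POLD2 (0.30 ± 0.09) rose, POLD2 not with library sizes alone. Without 24 h replicate 2 the number of replication genes that rose was 3.

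Of 65 listed mitotic genes, 16 rose and 20 fell, around a median of -0.01, and with library sizes alone 8 higher and 34 lower. Called in either direction were 55.4% of them, against 68.5% of all genes. MKI67, the marker of cycling cells, had 118, 145, 139 and 141 CPM in the 24 h libraries, against 104, 108, 109.7 and 112 CPM in the proliferation libraries (log2 fold change 0.33 ± 0.08 (SE), edgeR adjusted p = 5.35e-04). All 4 of its 24 h libraries were above all 4 proliferation libraries by a small margin, a rise that was not called with library sizes alone (log2 fold change 0.14, edgeR adjusted p = 0.14). The mitotic regulators FOXM1 (0.67 ± 0.10), NCAPD2 (0.60 ± 0.07), KIFC1 (0.58 ± 0.07), PLK1 (0.56 ± 0.07) and TACC3 (0.56 ± 0.07) rose under both scalings. SMC2, the partner of NCAPD2 in condensin (-0.66 ± 0.06), and the kinetochore and checkpoint genes TTK (-0.65 ± 0.08), SPC25 (-0.65 ± 0.13), KNL1 (-0.62 ± 0.08) and CENPE (-0.58 ± 0.07) fell. CCNA2, the cyclin of S and G2 phase, averaged 42.5 ± 4.23 CPM at 24 h and 46.9 ± 1.57 CPM in proliferation and was not called (log2 fold change -0.14 ± 0.07 (SE), edgeR adjusted p = 0.074), but it was called lower without 24 h replicate 2 (edgeR adjusted p = 0.010).

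Some brakes of the cell cycle rose, although their group as a whole, given below, had shares near those of all genes. TXNIP, which binds thioredoxin and limits glucose uptake, had 148, 127, 137 and 138 CPM in the 24 h libraries, against 46.3, 40.4, 48.6 and 42.2 CPM in the proliferation libraries (log2 fold change 1.63 ± 0.08 (SE), edgeR adjusted p = 1.06e-16). CDKN2B, the inhibitor p15 of the kinases of G1, had 28.9, 27.8, 27.8 and 26.4 CPM in the 24 h libraries, against 12.5, 10.97, 12.1 and 11.6 CPM in the proliferation libraries (log2 fold change 1.24 ± 0.09 (SE), edgeR adjusted p = 3.47e-13). CDKN1A, the inhibitor p21, had 297, 370.0, 378 and 360.2 CPM in the 24 h libraries, against 218, 233, 217 and 238 CPM in the proliferation libraries (log2 fold change 0.63 ± 0.05 (SE), edgeR adjusted p = 9.02e-12). None of these genes had overlapping groups.

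CCND1, the cyclin D1 that growth factors induce, had 24.2, 30.9, 31.7 and 31.5 CPM in the 24 h libraries, against 45.95, 42.9, 45.3 and 44.9 CPM in the proliferation libraries, with replicate 1 at 24 h below the others (log2 fold change -0.59 ± 0.08 (SE), edgeR adjusted p = 1.41e-07). Over the whole group of 45 genes of cell cycle control and exit, CCND1 included, 16 rose and 13 fell. With library sizes alone the order turned, 12 higher and 20 lower. Called in either direction were 64.4% of them, against 68.5% of all genes. GADD45B (0.72 ± 0.11), GADD45G (0.71 ± 0.09), the DREAM complex subunit LIN37 (0.74 ± 0.11) and GAS6 (0.59 ± 0.09), a ligand of AXL, rose. CCNG2 (-1.04 ± 0.10), KLF4 (-0.67 ± 0.07), CCNG1 (-0.60 ± 0.04) and LIN9 (-0.60 ± 0.11) fell.

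Extracellular matrix genes were mostly higher at 24 h. Of 60 listed matrix components, 48 rose and 7 fell, with a median of 0.57 (41 higher and 10 lower with library sizes alone). In 54 of the 60, called or not, the groups did not overlap. Of all genes, 58.7% were called and did not overlap, a slightly narrower count. COL1A1, the chain of type I collagen, had 41050, 39690, 44970 and 40120 CPM in the 24 h libraries, against 19210, 17890, 17600 and 16750 CPM in the proliferation libraries (log2 fold change 1.22 ± 0.04 (SE), edgeR adjusted p = 4.62e-21). FN1, fibronectin, had 25470, 24430, 28330 and 25270 CPM in the 24 h libraries, against 10510, 10300, 10850 and 10820 CPM in the proliferation libraries (log2 fold change 1.28 ± 0.05 (SE), edgeR adjusted p = 1.10e-19). Each 24 h library of both genes held more than any proliferation library. The basement membrane proteoglycan HSPG2 (1.37 ± 0.09), the type IV collagen chain COL4A2 (1.09 ± 0.07) and COL8A2 (1.03 ± 0.12) also rose, as did SPP1, osteopontin, by a small step that was not called with library sizes alone (0.28 ± 0.05).

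The 7 matrix components that fell included small leucine-rich proteoglycans, which bind collagen fibrils and growth factors. ASPN, asporin, had 9.49, 9.61, 9.898 and 10.7 CPM in the 24 h libraries, against 25.7, 29.7, 22.8 and 27.8 CPM in the proliferation libraries (log2 fold change -1.42 ± 0.09 (SE), edgeR adjusted p = 8.62e-15). OGN, given above, fell by a like amount, as did ECM2 (-1.39 ± 0.11), and decorin, DCN (-0.87 ± 0.09), and lumican, LUM (-0.53 ± 0.11), fell less. EFEMP1, fibulin 3, fell too (-0.85 ± 0.18). OGN, ASPN and ECM2 lie on chromosome 8 in the deposited coordinates.

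Matrix enzymes and their inhibitors followed the matrix, with 30 of 45 listed genes higher and 8 lower (23 higher and 11 lower with library sizes alone). PLAUR, the urokinase receptor, had 65.9, 58.1, 58.1 and 59.1 CPM in the 24 h libraries, against 21.4, 22.04, 25.2 and 23.7 CPM in the proliferation libraries (log2 fold change 1.38 ± 0.05 (SE), edgeR adjusted p = 7.23e-20). All 24 h values of PLAUR were above all proliferation values. The cross-linking enzymes TGM2 (1.25 ± 0.12) and LOXL3 (1.24 ± 0.05) and the fibrillin-binding ADAMTS10 (1.26 ± 0.06) rose. Besides ADAMTS5, the collagen-degrading cathepsin CTSK (-0.69 ± 0.05), MMP19 (-0.46 ± 0.10) and PCOLCE2 (-0.44 ± 0.07) fell.

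In the TGF-beta and BMP group, whose ligands restrain myoblast differentiation and drive matrix deposition, 25 of 43 listed genes rose and 14 fell (21 higher and 15 lower with library sizes alone). TGFBI, a secreted target of TGF-beta, had 27.5, 24.7, 26.01 and 24.8 CPM in the 24 h libraries, against 8.01, 9.13, 7.597 and 7.11 CPM in the proliferation libraries (log2 fold change 1.69 ± 0.10 (SE), edgeR adjusted p = 5.72e-15). No library of TGFBI crossed between the groups. The latent TGF-beta binding proteins LTBP4 (1.45 ± 0.05) and LTBP2 (1.06 ± 0.06), the target PMEPA1 (1.37 ± 0.09) and the ligand BMP6 (1.203 ± 0.15) rose. The coreceptor TGFBR3 (-1.24 ± 0.14), the inhibitory SMAD6 (-0.93 ± 0.11), the BMP signal carrier SMAD5 (-0.71 ± 0.07) and the receptor BMPR2 (-0.61 ± 0.06) fell, beside the antagonist GREM1. ID1, ID3 and SMAD6, textbook targets of BMP signalling, were lower, while the ligand BMP6 was higher and the antagonist GREM1 lower. Whether BMP signalling changed was not tested.

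Actin genes and targets of SRF and YAP rose in 27 of 41 cases and fell in 8, with a median of 0.25; with library sizes alone the counts were 17 higher and 13 lower. CCN1, a matricellular target of YAP, had 1290, 1115, 1206 and 1175 CPM in the 24 h libraries, against 803, 792, 821 and 807 CPM in the proliferation libraries (log2 fold change 0.57 ± 0.04 (SE), edgeR adjusted p = 3.40e-13). CCN2, its relative, had 3923, 3642, 3731 and 3790 CPM in the 24 h libraries, against 3151, 3108, 3145 and 3048 CPM in the proliferation libraries (log2 fold change 0.28 ± 0.05 (SE), edgeR adjusted p = 3.11e-05). Both were higher in every 24 h library, but CCN2 was not called with library sizes alone. The kinase NUAK2 (1.06 ± 0.06), the smooth muscle actin ACTG2 (0.89 ± 0.05), non-muscle myosin MYH9 (0.74 ± 0.04), the receptor AXL (0.67 ± 0.04) and filamin A, FLNA (0.64 ± 0.04), rose. YAP1 itself fell (-0.86 ± 0.04), as did tissue factor, F3 (-0.84 ± 0.15), NT5E (-0.39 ± 0.06), TPM4 (-0.27 ± 0.03) and CALD1 (-0.27 ± 0.07).

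Genes of cholesterol synthesis mostly fell. SREBP factors switch the enzymes on when sterol in the membrane is low, and HMGCS1 makes HMG-CoA, the substrate of the reductase that statins block. Of 31 listed members, 23 fell and 3 rose, with a median of -0.35 (2 higher and 25 lower with library sizes alone). HMGCS1 (ENSBTAG00000011839, chromosome 20, 31431059 to 31456871) had 61.8, 56.1, 54.2 and 57.7 CPM in the 24 h libraries, against 149, 174, 155 and 161 CPM in the proliferation libraries. The 24 h libraries lay close together, far below the proliferation libraries (log2 fold change -1.48 ± 0.05 (SE), edgeR adjusted p = 1.69e-20).

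Later enzymes of the pathway, MSMO1 (-1.03 ± 0.06) and SQLE (-0.95 ± 0.06), fell, as did the sterol carrier STARD4 (-1.01 ± 0.10) and INSIG1, the sterol-sensitive retention factor of SREBP (-0.91 ± 0.09). The members that rose were the sterol reductase TM7SF2 (1.67 ± 0.22), the SREBP escort SCAP (0.53 ± 0.04) and SREBF2 itself (0.23 ± 0.05), which was not called with library sizes alone.

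Fatty acid genes fell in 22 and rose in 14 of 43 cases (9 higher and 27 lower with library sizes alone). Beside SCD, the elongase ELOVL6 (-0.90 ± 0.09), the acyl-CoA synthetase ACSL4 (-0.74 ± 0.06), the muscle fatty acid carrier FABP3 (-1.26 ± 0.10) and the nuclear receptor PPARA (-0.99 ± 0.21) fell. Beside ANGPTL4, the lipid droplet protein HILPDA (1.69 ± 0.21), the glucose-sensing factor MLXIPL (1.28 ± 0.15), CPT1B, the muscle carnitine transferase (0.93 ± 0.26), and the triglyceride enzyme DGAT1 (0.79 ± 0.05) rose.

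**Figure D3:**
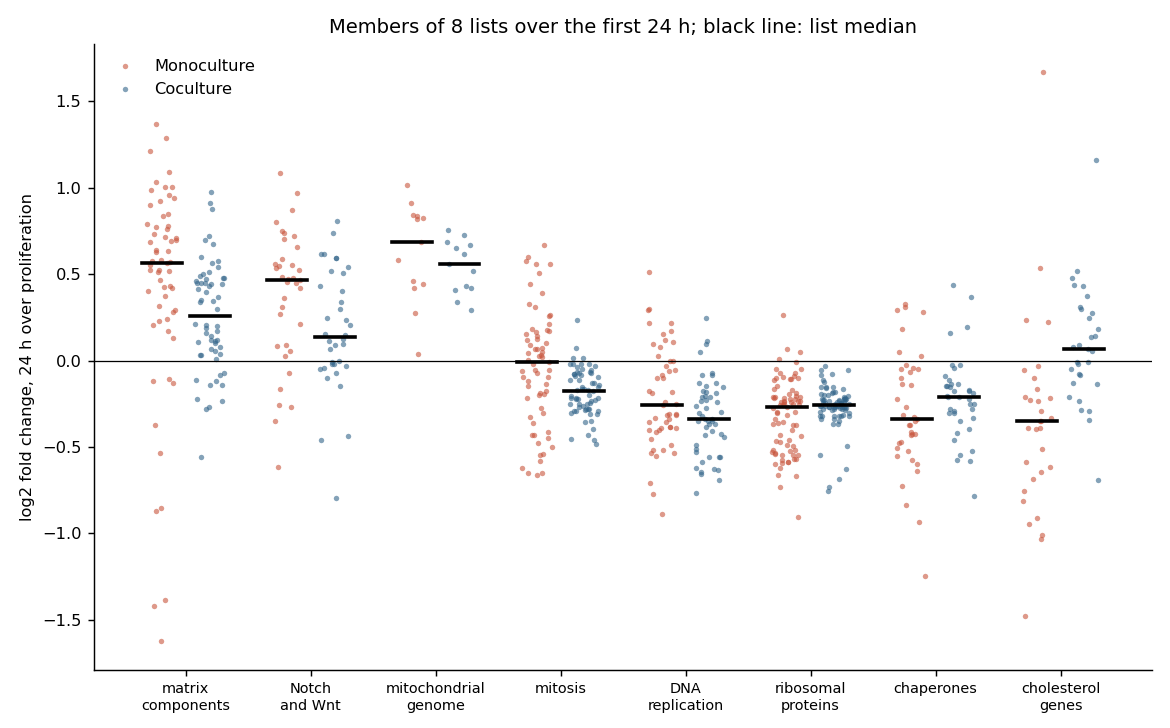
Log2 fold change of 24 h over proliferation for every listed member of 8 gene groups (each point 1 gene) in monoculture (orange, left of each pair) and coculture (blue, right of each pair), with the median as a black line. The cholesterol genes had a median of -0.35 in monoculture and 0.07 in coculture, while the ribosomal proteins had -0.27 in monoculture and -0.26 in coculture.

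The 13 protein genes of the mitochondrial genome rose nearly together: 12 were called higher, 0 lower, with a median of 0.69 (11 higher and 0 lower with library sizes alone). CYTB, cytochrome b of complex III, had 1851, 1658, 2061 and 1754 CPM in the 24 h libraries, against 925, 928, 892 and 874 CPM in the proliferation libraries (log2 fold change 1.02 ± 0.06 (SE), edgeR adjusted p = 3.04e-15). Every 24 h library of CYTB was far above proliferation, and ND4 (0.91 ± 0.06), COX1 (0.84 ± 0.05), COX3 (0.84 ± 0.05) and ATP6 (0.83 ± 0.05) rose alike. The share of ribosomal RNA left in the libraries also differed between the groups, and its part in this result was not tested.

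Respiratory chain and citrate cycle genes of the nucleus did not follow. Of 80 listed, 20 rose and 38 fell, with a median of -0.14 (3 higher and 53 lower with library sizes alone). NDUFS7 (0.45 ± 0.05) of complex I and CYC1 (0.33 ± 0.05) rose, while cytochrome c, CYCS (-0.76 ± 0.05), and NDUFS1 (-0.67 ± 0.04), also of complex I, fell.

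Cytosolic ribosomal protein genes fell almost as a block, 67 of 81 listed genes against 1 that rose, with a median of -0.27 (0 higher and 77 lower with library sizes alone). RPS4X (-0.62 ± 0.05) and RPL36A (-0.73 ± 0.06) fell, and the member that rose was FAU (0.26 ± 0.05), not with library sizes alone. Ribosome assembly genes split, 13 higher and 18 lower of 45 (7 higher and 30 lower with library sizes alone). The nucleolar genes NIP7 (-1.04 ± 0.11), NPM1 (-0.88 ± 0.04) and DDX21 (-0.62 ± 0.05) fell, and RRP12 (0.50 ± 0.04) and NOP2 (0.49 ± 0.06) rose. Ribosomal proteins and NPM1 have near-identical copies in the genome among which the counting could split reads, so their values are less certain.

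Chaperones fell in 27 and rose in 5 of 39 cases, with a median of -0.34 (2 higher and 32 lower with library sizes alone). HSPH1, a nucleotide exchange factor of HSP70, had 75.6, 81.05, 77.2 and 80.4 CPM in the 24 h libraries, against 189, 194, 179 and 183 CPM in the proliferation libraries (log2 fold change -1.25 ± 0.04 (SE), edgeR adjusted p = 3.86e-20). The groups of HSPH1 were narrow and far apart. HSPA4L (-0.93 ± 0.15), CHORDC1 (-0.83 ± 0.06), HSPA4 (-0.72 ± 0.04) and the mitochondrial HSPE1 (-0.64 ± 0.05) fell. The heat shock factor HSF1 (0.31 ± 0.04) and HSPA1A (0.33 ± 0.07) rose, HSPA1A being a gene with a near-identical copy.

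Genes of translation supply were mixed. Aminoacyl-tRNA synthetases rose in 6 and fell in 12 of 23 cases (3 higher and 17 lower with library sizes alone), with MARS1 (0.41 ± 0.03) and CARS1 (0.37 ± 0.04) higher and LARS1 (-0.52 ± 0.04) lower. In the group of amino acid and endoplasmic reticulum stress, 20 of 45 rose and 15 fell; with library sizes alone the order turned, 10 higher and 26 lower. SESN2, an inhibitor of mTORC1 (1.23 ± 0.05), the pseudokinase TRIB3 (0.89 ± 0.05) and the amino acid transporter chain SLC3A2 (0.63 ± 0.04) rose, and NUPR1 (-0.75 ± 0.08) and ATF6 (-0.37 ± 0.05) fell.

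Glycolysis and hypoxia genes rose in 16 and fell in 18 of 44 cases (9 higher and 25 lower with library sizes alone). The blood cell hexokinase HK3 (1.16 ± 0.10), the mTORC1 inhibitor DDIT4 (1.03 ± 0.15), adrenomedullin, ADM (0.78 ± 0.15), VEGFA (0.75 ± 0.05) and the glucose transporter SLC2A3 (0.58 ± 0.06) rose. The pyruvate dehydrogenase kinase PDK3 (-0.82 ± 0.07), the oxygen sensor EGLN3 (-0.62 ± 0.09), ALDOC (-0.56 ± 0.10) and the muscle hexokinase HK2 (-0.54 ± 0.10) fell.

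Early response and ERK feedback genes were divided, 11 higher and 11 lower of 37 listed (8 higher and 16 lower with library sizes alone; 6 lower without 24 h replicate 1). ETV5, a transcription factor that ERK induces, had 2.77, 2.8, 2.84 and 3.33 CPM in the 24 h libraries, against 9.38, 5.49, 7.23 and 5.44 CPM in the proliferation libraries (log2 fold change -1.22 ± 0.14 (SE), edgeR adjusted p = 6.67e-09). SPRY4, a feedback inhibitor of ERK, had 0.817, 0.878, 1.21 and 0.942 CPM in the 24 h libraries, against 1.18, 2.09, 2.64 and 2.01 CPM in the proliferation libraries. The highest 24 h library of SPRY4 passed the lowest proliferation library, while the groups of ETV5 did not overlap (log2 fold change -1.05 ± 0.23 (SE), edgeR adjusted p = 1.56e-04 for SPRY4). SPRED1 (-0.98 ± 0.09), PHLDA1 (-0.70 ± 0.09) and ETV1 (-0.52 ± 0.07) also fell.

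EGR1, an early growth response factor (ENSBTAG00000010069, chromosome 7, 49826480 to 49830253), had 1.63, 3.05, 3.37 and 2.699 CPM in the 24 h libraries, against 2.48, 3.09, 3.17 and 3.58 CPM in the proliferation libraries. The groups overlapped and EGR1 was not called (log2 fold change -0.18 ± 0.19 (SE), edgeR adjusted p = 0.41). FOS had 30.7, 25.8, 30.8 and 27.2 CPM in the 24 h libraries, against 23.6, 21.3, 21.2 and 22.4 CPM in the proliferation libraries, a small rise (log2 fold change 0.37 ± 0.16 (SE), edgeR adjusted p = 0.039) that was no longer called with library sizes alone, nor without proliferation replicate 2, 3 or 4 or without 24 h replicate 1 or 3. JUNB (0.57 ± 0.05), the RNA decay factors ZFP36 (0.69 ± 0.14) and ZFP36L1 (0.65 ± 0.04) and CCNL1 (0.55 ± 0.07) rose.

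Notch and Wnt genes were mostly higher, 26 of 36 listed against 3 that fell, with a median of 0.47 (19 higher and 6 lower with library sizes alone). Notch holds satellite cells back from differentiation, and Wnt signals promote it. The frizzled receptors FZD2 (1.08 ± 0.11) and FZD1 (0.97 ± 0.04), the receptor NOTCH3 (0.87 ± 0.09), the Wnt modulator SFRP2 (0.80 ± 0.04) and the factor TCF7 (0.75 ± 0.10) rose. RBPJ, the DNA-binding partner of activated Notch (-0.62 ± 0.07), and the Wnt coreceptors LRP6 (-0.35 ± 0.08) and RYK (-0.26 ± 0.05) fell.

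Insulin-like growth factors drive both growth and differentiation of myoblasts. Of 21 listed genes of that pathway, 8 rose and 8 fell (4 higher and 11 lower with library sizes alone). IRS2, an adaptor of the receptor (1.29 ± 0.13), the binding proteins IGFBP2 (0.87 ± 0.05) and IGFBP7 (0.43 ± 0.04) and the adaptor GRB10 (0.41 ± 0.05) rose. IGFBP5 (-1.02 ± 0.17) and PIK3IP1, an inhibitor of phosphoinositide 3-kinase (-0.56 ± 0.15), fell. Among 29 growth factors and receptors, 11 rose and 9 fell (5 higher and 14 lower with library sizes alone), with midkine, MDK (0.76 ± 0.14), higher and KITLG (-1.203 ± 0.17), VEGFD (-1.12 ± 0.17), FGF7 (-1.001 ± 0.12), PDGFD (-0.99 ± 0.12) and BDNF (-0.64 ± 0.07) lower.

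Cytokine and NF-kB genes rose in 19 and fell in 11 of 41 cases; with library sizes alone the order turned, 9 higher and 13 lower. The adhesion molecule ICAM1 (1.21 ± 0.16), the adaptor TRAF1 (1.204 ± 0.19), complement C3 (1.17 ± 0.32), NFKBIZ (1.09 ± 0.10) and RELB (1.07 ± 0.12) rose, and beside IL1RL1 and PTGES the chemokine CXCL5 (-0.81 ± 0.16), the shared receptor chain IL6ST (-0.70 ± 0.07) and TNFAIP8 (-0.60 ± 0.13) fell. Interferon and antigen presentation genes showed 12 higher and 14 lower of 45 (9 higher and 23 lower with library sizes alone). The peptide transporter TAP1 (1.07 ± 0.07) and the proteasome subunit PSMB9 (1.04 ± 0.19) rose, and the kinase EIF2AK2 (-1.04 ± 0.12), PARP14 (-0.87 ± 0.06) and SAMD9 (-0.76 ± 0.15) fell.

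Atrophy, autophagy and lysosome genes were evenly divided, 19 higher and 19 lower of 49 (13 higher and 27 lower with library sizes alone). ATG2A (0.94 ± 0.07), the lysosome factor TFE3 (0.73 ± 0.04) and the ubiquitin ligases FBXO31 (0.73 ± 0.12) and FBXO32, atrogin-1 (0.72 ± 0.17), rose, and GLA (-0.89 ± 0.07), the proton pump subunit ATP6V1A (-0.87 ± 0.05) and ATG5 (-0.67 ± 0.07) fell. Glucocorticoid and clock genes had 12 higher and 9 lower of 29 (9 higher and 10 lower with library sizes alone). Beside PER1 and ANGPTL4, the glucocorticoid target TSC22D3 (0.91 ± 0.05), NR1D1 (0.83 ± 0.14) and PER3 (0.72 ± 0.20) rose, and CLOCK (-0.87 ± 0.10), HLF (-0.68 ± 0.18) and the glucocorticoid receptor NR3C1 (-0.49 ± 0.06) fell. NRF2 and antioxidant genes had 12 higher and 13 lower of 38 (8 higher and 24 lower with library sizes alone), with SRXN1 (0.98 ± 0.11) and OSGIN1 (0.75 ± 0.10) higher and ferritin, FTH1 (-0.78 ± 0.06), HMOX1 (-0.77 ± 0.07) and PRDX3 (-0.67 ± 0.05) lower.

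Markers of other cells that a muscle isolate can hold did not move as one. Of 20 markers of fibroblasts and fibro-adipogenic progenitors 13 are listed, 4 of them higher and 5 lower (4 higher and 6 lower with library sizes alone). Their summed level ran over 2819 to 2946 CPM in the 24 h libraries and 3599 to 3800 CPM in the proliferation libraries. PDGFRA, the defining receptor of these progenitors, had 48.9, 49.4, 52.02 and 49.2 CPM in the 24 h libraries, against 69.4, 66.2, 63.5 and 65.8 CPM in the proliferation libraries (log2 fold change -0.41 ± 0.06 (SE), edgeR adjusted p = 3.60e-07), lower in every 24 h library. S100A4 (-0.84 ± 0.07) and MEOX2 (-0.84 ± 0.08) fell beside DCN and LUM, while CD248 (0.66 ± 0.04), FBLN1 (0.51 ± 0.03) and THY1 (0.50 ± 0.08) rose. In bulk RNA fewer cells of a type and less RNA per cell cannot be told apart, and the part of these cells in the matrix results was not tested.

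Pericyte and smooth muscle markers were higher in 10 and lower in 1 of 13 listed of 17 (6 higher and 2 lower with library sizes alone; none lower without proliferation replicate 2 or 24 h replicate 2). Their summed level ran over 21130 to 23810 CPM in the 24 h libraries and 17810 to 18000 CPM in the proliferation libraries. CSPG4 (0.78 ± 0.08) and SMTN (0.77 ± 0.05) rose beside ACTG2, NOTCH3 and DES. The 1 that fell was the smooth muscle myosin MYH11 (-0.23 ± 0.08), with means of 49.4 CPM at 24 h and 57.8 CPM in proliferation. The pericyte genes RGS5, ABCC9 and KCNJ8 are not among the listed genes.

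Few markers of the remaining cell types are listed. With library sizes alone, adipocyte markers gave 2 higher and 0 lower, and leukocyte markers the same. Endothelial markers then gave 2 higher and 1 lower, bone and cartilage markers the same, and glial markers 0 higher and 1 lower. The counts that follow are with TMM. Adipocyte markers number 4 of 12, with 2 higher, FABP4 (0.71 ± 0.08) and CIDEA (0.99 ± 0.11), over a summed 33.96 to 38.5 CPM in the 24 h libraries and 20.2 to 24.1 CPM in the proliferation libraries, and ADIPOQ, PLIN4 and LEP are not listed. Endothelial markers number 4 of 15, with 2 higher, ERG (1.34 ± 0.09) and EGFL7 (0.76 ± 0.23), over a summed 101 to 114 CPM in the 24 h libraries and 78.5 to 86.4 CPM in the proliferation libraries, and PECAM1 and CDH5 are not listed. Leukocyte markers number 2 of 16, CD68 (0.99 ± 0.29) and FCER1G (0.85 ± 0.25), both higher over a summed 2.32 to 3.26 CPM in the 24 h libraries and 1.32 to 1.49 CPM in the proliferation libraries, and PTPRC is not listed. Bone and cartilage markers number 4 of 12, with 2 higher, RUNX2 (1.01 ± 0.09) and ACAN (1.804 ± 0.31), over a summed 70.1 to 76.9 CPM in the 24 h libraries and 51.8 to 53.8 CPM in the proliferation libraries, and SP7 and BGLAP are not listed. Glial markers number 2 of 9, S100B and PMP22, with none called (1 lower without 24 h replicate 1), over a summed 109 to 130.4 CPM in the 24 h libraries and 107 to 117 CPM in the proliferation libraries.

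The same 24 h in coculture gave 2504 genes higher (21.0%) and 2655 lower (22.2%), and the change in monoculture minus that in coculture, tested in the same model, was called positive in 3130 genes (26.2%) and negative in 2896 (24.3%). The monoculture and coculture changes share no library. Among the libraries of the first 24 h, only those of monoculture at 24 h have the number code 1, and both coculture groups have the code 2. The difference therefore cannot be told apart from whatever that code stands for. Coculture replicates 3 and 4 at 24 h came from lane 7 and all other libraries of the first 24 h from lane 6, so the coculture change partly coincides with lane; with lane 6 alone the difference was called in 5479 genes and the coculture change in 3724. Coculture replicate 2 at 24 h held 4.07% nuclear ribosomal RNA, and the difference was called in 5670 genes without it and in 6026 with it. Of the 404 genes at least 2-fold higher in monoculture, 328 were called higher in coculture too and 1 lower, and of the 130 at least 2-fold lower, 79 were called lower and 2 higher. The sizes differed: the median of the 404 genes was 1.25 in monoculture, which chose them, and 0.66 in coculture, and that of the 130 genes was -1.13 and -0.52. Across all genes, 605 were called in opposite directions in the 2 cultures with the difference called.

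**Figure D4:**
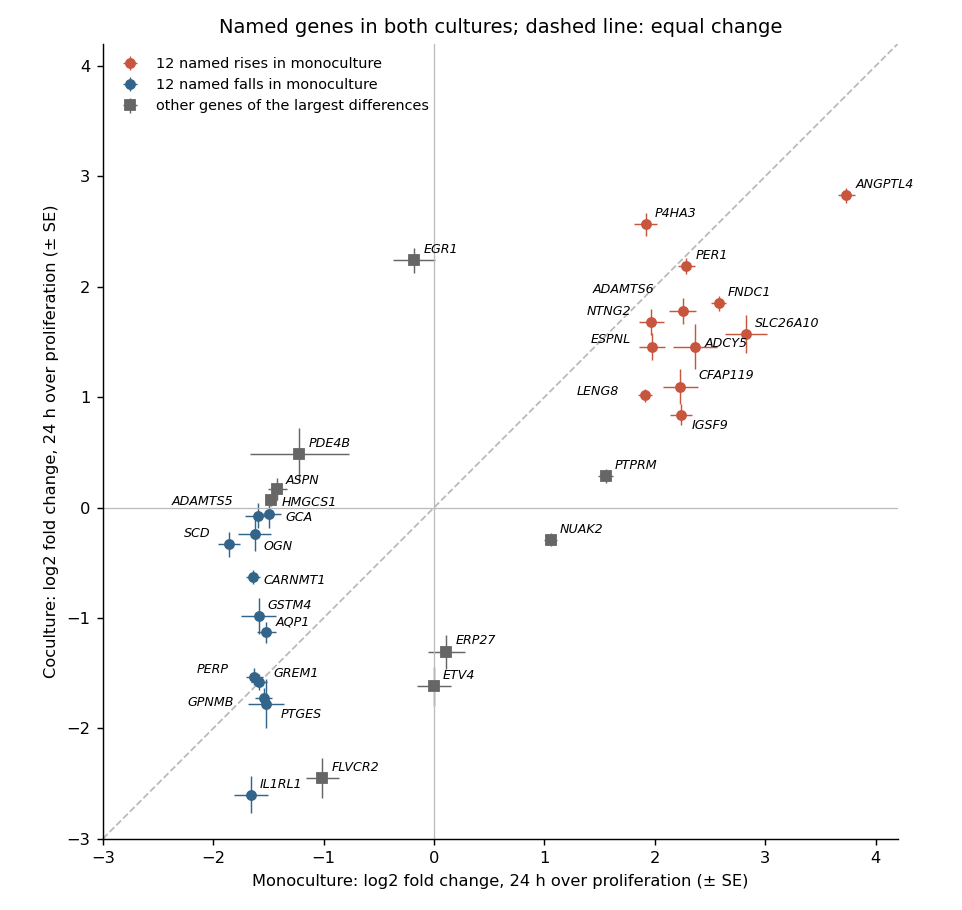
Log2 fold change of 24 h over proliferation (± SE, 4 libraries per group) in monoculture (horizontal) and coculture (vertical) for the 12 named rises and 12 named falls in monoculture and the other genes among the 12 largest differences; on the dashed line the changes are equal. PER1 and GREM1 lie on the line, EGR1 far above it at -0.18 and 2.24, and FLVCR2, ERP27 and ETV4 below it.

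Several of the largest changes had the same direction in both cultures. PER1 changed by 2.29 ± 0.07 in monoculture and 2.19 ± 0.07 in coculture, a difference of 0.10 ± 0.11 (edgeR adjusted p = 0.46). GREM1 changed by -1.58 ± 0.07 in monoculture and -1.58 ± 0.07 in coculture, a difference of 0.00 ± 0.09. ANGPTL4 rose in both, by 3.74 ± 0.08 in monoculture and 2.83 ± 0.07 in coculture, and its difference was called (0.91 ± 0.11, edgeR adjusted p = 1.03e-07). P4HA3 rose less in monoculture than in coculture (-0.65 ± 0.15, edgeR adjusted p = 8.54e-04).

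Cholesterol genes fell in monoculture and did not fall as a group in coculture. Their median was -0.35 in monoculture and 0.07 in coculture, where 10 higher and 5 lower of 31 were called, and the difference was called negative in 19 members and positive in 2. HMGCS1 in monoculture averaged 57.5 ± 3.25 CPM at 24 h and 159.6 ± 10.5 CPM in proliferation; in coculture it averaged 61.5 ± 2.26 CPM at 24 h and 58.8 ± 1.17 CPM in proliferation (SD, n = 4). The 24 h levels of both cultures were near each other, and the monoculture in proliferation stood apart from the other 3 groups. The change of HMGCS1 differed by -1.54 ± 0.07 (edgeR adjusted p = 1.24e-15). SQLE and MSMO1 fell in monoculture and rose in coculture, with differences of -1.38 ± 0.09 and -1.34 ± 0.08. SCD averaged 11.2 ± 1.63 CPM at 24 h and 40.99 ± 4.22 CPM in proliferation in monoculture and 10.5 ± 1.28 CPM at 24 h and 13.4 ± 1.74 CPM in proliferation in coculture, so that it too was highest in the monoculture in proliferation (difference -1.52 ± 0.15, edgeR adjusted p = 3.51e-09).

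Matrix genes were called higher in both cultures, 48 in monoculture and 35 in coculture, with medians of 0.57 and 0.26, and the difference was positive in 39 and negative in 8 of 60. COL1A1 averaged 41460 ± 2408 CPM at 24 h and 17860 ± 1017 CPM in proliferation in monoculture and 40230 ± 2225 CPM at 24 h and 25270 ± 336 CPM in proliferation in coculture, with a difference of 0.54 ± 0.05 (edgeR adjusted p = 6.26e-09). ITGA7 rose by 1.896 ± 0.08 in monoculture and by 0.89 ± 0.09 in coculture (difference 1.01 ± 0.12, edgeR adjusted p = 9.27e-08). DES rose in monoculture and fell in coculture (-0.32 ± 0.06), with a difference of 0.81 ± 0.09. The proteoglycans ASPN (difference -1.59 ± 0.13) and OGN (-1.39 ± 0.22) and the protease ADAMTS5 (-1.52 ± 0.16) fell in monoculture and were not called in coculture, at 0.17 ± 0.10, -0.24 ± 0.16 and -0.07 ± 0.11.

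EGR1 had the most negative difference, -2.42 ± 0.22 (edgeR adjusted p = 1.53e-09): it rose in coculture (2.24 ± 0.11) and was not called in monoculture. It averaged 2.69 ± 0.755 CPM at 24 h and 3.08 ± 0.451 CPM in proliferation in monoculture and 30.4 ± 4.82 CPM at 24 h and 6.52 ± 0.366 CPM in proliferation in coculture. PDE4B, a phosphodiesterase of cyclic AMP, fell in monoculture (-1.22 ± 0.45) and was 0.48 ± 0.24, not called, in coculture (difference -1.700 ± 0.51); its monoculture fall was not called without proliferation replicate 1 or 24 h replicate 3. The 6 most positive differences were those of ETV4 (1.62 ± 0.24), FLVCR2 (1.44 ± 0.25), ERP27 (1.42 ± 0.23), IGSF9 (1.396 ± 0.14), NUAK2 (1.35 ± 0.08) and PTPRM (1.27 ± 0.10).

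These 6 genes arrived there by different routes. ETV4, an ERK-responsive factor, averaged 4.03 ± 0.803 CPM at 24 h and 4.08 ± 0.348 CPM in proliferation in monoculture and 1.68 ± 0.438 CPM at 24 h and 5.23 ± 0.624 CPM in proliferation in coculture, and ERP27, a redox-inactive protein of the endoplasmic reticulum, 3.57 ± 0.667 CPM at 24 h and 3.29 ± 0.695 CPM in proliferation in monoculture and 2.85 ± 0.319 CPM at 24 h and 6.89 ± 1.301 CPM in proliferation in coculture, and both fell in coculture and were not called in monoculture. FLVCR2, a choline transporter, fell in both cultures, by -1.01 ± 0.15 in monoculture and -2.45 ± 0.18 in coculture. NUAK2 rose in monoculture (1.06 ± 0.06) and fell in coculture (-0.29 ± 0.06), and IGSF9 (2.24 ± 0.10 in monoculture, 0.84 ± 0.09 in coculture) and the phosphatase PTPRM (1.56 ± 0.07 in monoculture, 0.29 ± 0.07 in coculture) rose in both.

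Of the replication genes 27 fell in monoculture and 33 in coculture, and of the mitotic genes 16 rose and 20 fell in monoculture, against 1 and 31 in coculture, with the difference called positive in 25 and negative in 6 of 65. MKI67 differed by 0.38 ± 0.11 (edgeR adjusted p = 0.0059), FOXM1 by 0.75 ± 0.14 and PLK1 by 0.78 ± 0.10. CCND1 fell less in monoculture (-0.59 ± 0.08) than in coculture (-1.29 ± 0.08), with a difference of 0.70 ± 0.11 (edgeR adjusted p = 9.30e-06). Of the mitochondrial genome genes, 13 higher and 0 lower were called in coculture, with a median of 0.56, and of the ribosomal protein genes 0 higher and 74 lower, with a median of -0.26.

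The monoculture at 72 h gives levels to set beside the first 24 h, without a test. MKI67 averaged 108.2 ± 3.48 CPM in proliferation, 135.8 ± 12.2 CPM at 24 h and 21.4 ± 3.39 CPM at 72 h (SD, n = 4), so its level at 72 h was far below both earlier stages. CCNA2 was at 10.4 ± 1.85 CPM, FOXM1 at 3.05 ± 0.747 CPM and TTK at 2.204 ± 0.189 CPM at 72 h. ITGA7, ANGPTL4 and COL1A1, higher at 24 h than in proliferation, stood higher still at 155 ± 7.2 CPM, 173 ± 16.9 CPM and 61550 ± 1141 CPM. HMGCS1 and SCD stood lower still, at 23.7 ± 2.06 CPM and 3.57 ± 0.444 CPM. EGR1, not called at 24 h, stood at 203 ± 25.4 CPM at 72 h, and FOS, slightly higher at 24 h, at 459 ± 154 CPM. ASPN and PHLDA1, lower at 24 h, stood above their level in proliferation at 72 h, at 58.9 ± 6.84 CPM and 55.9 ± 3.52 CPM.

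**Figure D5:**
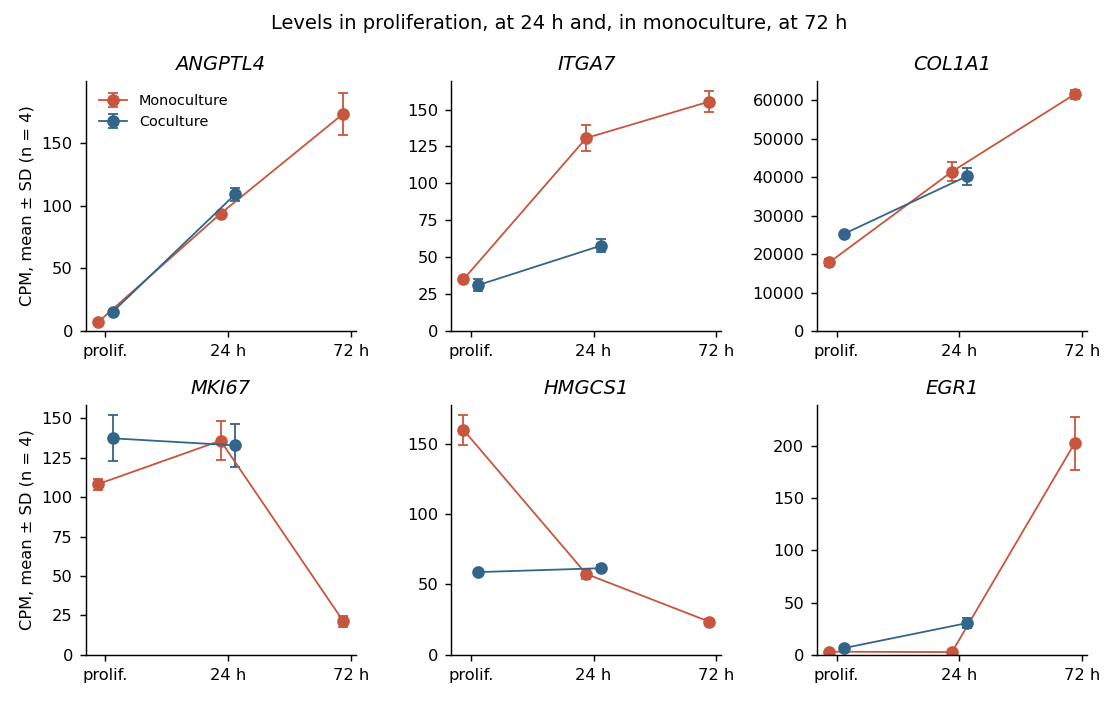
Mean CPM ± SD (n = 4) of 6 genes in proliferation, at 24 h and at 72 h in monoculture (orange) and in proliferation and at 24 h in coculture (blue); the stages are evenly spaced and each axis starts at 0. MKI67 averaged 21.4 CPM at 72 h in monoculture, HMGCS1 was highest in the monoculture in proliferation at 159.6 CPM, and EGR1 reached 202.6 CPM at 72 h in monoculture.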

How the data were processed

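RNA was sequenced from 24 labelled libraries, of which the 8 monoculture libraries in proliferation and at 24 h are the subject; each library started from 400 ng of RNA, per the labels' protocols. The authors deposited raw counts per gene as whole numbers; the submitters' processing notes list DESeq2, RSEM, STAR and FastQC; aligner settings, strand and genome build are not given in the sources used here, and the counts may be rounded RSEM estimates. The count table holds 36 library columns, and 12 that match no label were not used. A deposited table of the authors' comparison served for gene symbols, coordinates and biotypes only.

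In edgeR 4.0.16 (R 4.3.3) the counts were given TMM factors, filterByExpr (which removed 0 genes), 1 mean per group fitted to all 24 libraries (18 residual degrees of freedom, biological coefficient of variation 6.86%), quasi-likelihood F tests, and Benjamini-Hochberg adjustment over 11937 genes, called under 0.05. Each SE was taken as the absolute log2 fold change divided by the root of F. The procedure was tested on simulated data in which a small share of genes changed, equally up and down. That setting does not test the scaling for data in which most genes were called. Of 37 gene lists with 1432 symbols, 1183 symbols are listed; 893 listed genes have no symbol and 140 symbols belong to more than 1 gene. The members and lists were chosen with earlier results of these data known, and a list's count is a description, with no test of the list.

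Genes were named by rule: the 12 largest rises and 12 largest falls among called genes with a unique symbol, no overlap and at least 5 CPM in the higher group, the 6 most positive and 6 most negative differences from coculture, up to 5 called members per list and direction, and 23 fixed genes, of which 15 are listed, beside 5 further markers of satellite and glial cells. The text gives a selection of these, leaving out symbols held by more than 1 gene; some of the genes the rule names are not reported here. Alternatives were other scalings, filters, a stricter threshold, a replicate block, lane, DESeq2 1.42.0 and each library left out. Figures were drawn with matplotlib.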

Additional observations from a re-analysis of the deposited data

Results flagged for a closer look

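Of 86 groups of 4 libraries examined for a library far from the others by Dixon's test, 6 had one, and chance alone flags about 1 in 20. At 24 h, replicate 1 was low for ADAMTS5 (5.15 CPM, others 8.90 to 9.32) and CCND1 (24.2 CPM, others 30.9 to 31.7) and high for PLAUR (65.9 CPM, others 58.1 to 59.1). Replicate 3 at 24 h was high for PDGFRA (52.0 CPM, others 48.9 to 49.4), and replicate 4 at 24 h for ETV5 (3.33 CPM, others 2.77 to 2.84). In proliferation, replicate 1 was high for LENG8 (100.3 CPM, others 94.4 to 94.99). None of these genes lost its call when that library was left out.

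The change over the first 24 h differed between monoculture and coculture by a test of the difference itself in 12 named genes. The difference, monoculture minus coculture on the log2 scale, was positive for ETV4 (1.62 ± 0.24), FLVCR2 (1.44 ± 0.25), ERP27 (1.42 ± 0.23), IGSF9 (1.396 ± 0.14), NUAK2 (1.35 ± 0.08) and PTPRM (1.27 ± 0.10). It was negative for EGR1 (-2.42 ± 0.22), PDE4B (-1.700 ± 0.51), ASPN (-1.59 ± 0.13), HMGCS1 (-1.54 ± 0.07), SCD (-1.52 ± 0.15) and ADAMTS5 (-1.52 ± 0.16). For HMGCS1, SCD and ASPN the monoculture in proliferation was the highest of the 4 groups of the first 24 h, and the 24 h levels of the cultures lay close together.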

How the results depend on the processing

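The count of genes changed at 24 h was 8179, and it was within 1.5 times of that under every alternative run: 7043 at an adjusted p under 0.01, 8045 with DESeq2, and 7775 to 7947 with 1 library left out. Deviations of same-numbered libraries correlated between -0.018 and 0.008 for the monoculture groups. Over all pairs of groups examined they correlated between -0.13 and 0.12, 1 of them above 0.1. These values gave no sign of pairing by replicate number. They cannot exclude it, since paired cultures of the same cell mix need not deviate together. With a replicate block 8127 genes were called, and 5929 for the difference from coculture. Library sizes alone gave 2439 genes higher in place of 4092, 235 at least 2-fold higher and 339 at least 2-fold lower, and tests limited to genes averaging at least 5 CPM gave 233 and 76, among 9956 genes. With 1 library left out, 3877 to 3994 genes were higher, 3857 to 3964 lower, 367 to 421 at least 2-fold higher and 122 to 140 at least 2-fold lower, 5529 to 5906 differed from coculture and 4480 to 4807 changed in coculture. With lane as a covariate, which only coculture 24 h replicates 3 and 4 and the coculture at 72 h have as 7, there were 5552 genes for the difference and 3814 for coculture.

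Of 269 genes named with values or calls, MYH11 not counted, 260 were called, and library sizes alone changed the call or the sign of 17, the largest number for any alternative. Signs changed only for genes not called with TMM: ETV4 (-0.19 with library sizes alone, -0.00225 with the replicate block, -0.00296 with only the libraries compared, -0.0010 with DESeq2, -0.0947 to 0.12 with 1 library left out), ERP27 (-0.0767 with library sizes alone, -0.0147 to 0.22 with 1 left out), MET (-0.12 with library sizes alone, -0.00734 to 0.165 with 1 left out), SDC4 (-0.17, then called, with library sizes alone, -0.0379 to 0.0729 with 1 left out), PAX3 (-0.0952 with library sizes alone) and PMP22 (-0.0976 with library sizes alone). The causes were not tested. Replicates number 4 per group, and 1 spread per gene is shared by all 6 groups. The SE of a change therefore does not follow the scatter of the compared groups alone.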
